A study of Mus musculus with 12 samples.

Results

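The genes described here encode collagens and other components of the extracellular matrix of skeletal muscle, together with the enzymes and inhibitors that process and remodel it. They form a list of 33 genes, 32 of which were measured among 12393 genes with a probe set of their own, and Fbn1 was not analysed here. For each gene the brightest probe set, by mean over all 12 arrays, was used, a choice blind to genotype. Mice carrying a transgene for the R225Q form of the γ3 subunit of AMPK, the cellular energy sensor, were compared with their wild-type littermates, with 6 arrays of each genotype. All mice were C57BL/6 males of generation F5, aged 17 to 18 weeks and fasted overnight, and the tissue was white gastrocnemius, from the calf, where fast fibres predominate. Arrays are named by the numbers in their titles, 1 to 6 for transgenic and 7 to 12 for wild-type mice. The promoter that drives the transgene and the number of founder lines are not given in the sources used here.

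Muscle fibres lie in a layered scaffold. Next to each fibre is the basement membrane, a sheet of laminin, nidogen and type IV collagen. Outside it lies the interstitial matrix, in which fibrillar collagens of types I, III and V give tensile strength, collagen VI forms a beaded network, and proteoglycans and glycoproteins bind the fibrils, cells and growth factors. Most of these transcripts come from fibroblasts and other resident cells between the fibres, so in whole muscle fewer cells of a type and less RNA per cell cannot be told apart.

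Arrays correlated with each other at 0.985 to 0.997 on the log2 scale. No probe set carries the symbol of Prkag3, the gene of the transgene, so it is not analysed here and genotype rests on the titles alone. The labelled tissue was borne out by its markers: the 8 fast-muscle genes, with Atp2a1, the fast calcium pump, and Acta1, skeletal actin, as the brightest, had a mean of 13.68 ± 0.02 log2 units over transgenic arrays and of 13.67 ± 0.03 over wild-type arrays (SD, n = 6 each). The settings text of the arrays places 3 arrays of each genotype on each of 2 hybridization days, and transgenic array 1 and wild-type array 7 came from a smaller chip lot. On these last arrays the Gapdh control was brighter at its 3′ end than at its 5′ end, by 0.185 and 0.184 on the log2 scale, where the difference was between -0.0944 and -0.00174 on the others. For the actin control it was -0.108 on transgenic array 1 and 0.033 on wild-type array 7. On the others it was between -0.221 and -0.112.

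No matrix gene on the list passed the test between genotypes. The test was limma over 22626 probe sets with Benjamini-Hochberg adjustment and a threshold of 0.05, at which 0.0442% of all probe sets were called higher and 0.0265% lower in transgenic muscle. Postn had an adjusted p of 0.798 and the other 31 genes one of 0.999. At an unadjusted p under 0.05 there were 2 genes of 32, Postn and Col6a2, where the share of all probe sets was 4.63%. In 0 of the 32 genes did the genotypes separate without overlap, against 0.504% of all probe sets. The log2 fold changes, transgenic over wild type, are given with ± the SE, and ran from -0.23 to 0.14 with a median of -0.045, beside a median of -0.0013 over all 12393 genes. Of the 32, 21 were negative and 11 positive, and 49.4% of all genes were positive. The 95% intervals of 30 of the 32 genes lay wholly between -0.5 and 0.5, and over all 32 they reached from -0.57 for Col3a1 to 0.32 for Thbs1.

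**Figure D1:**
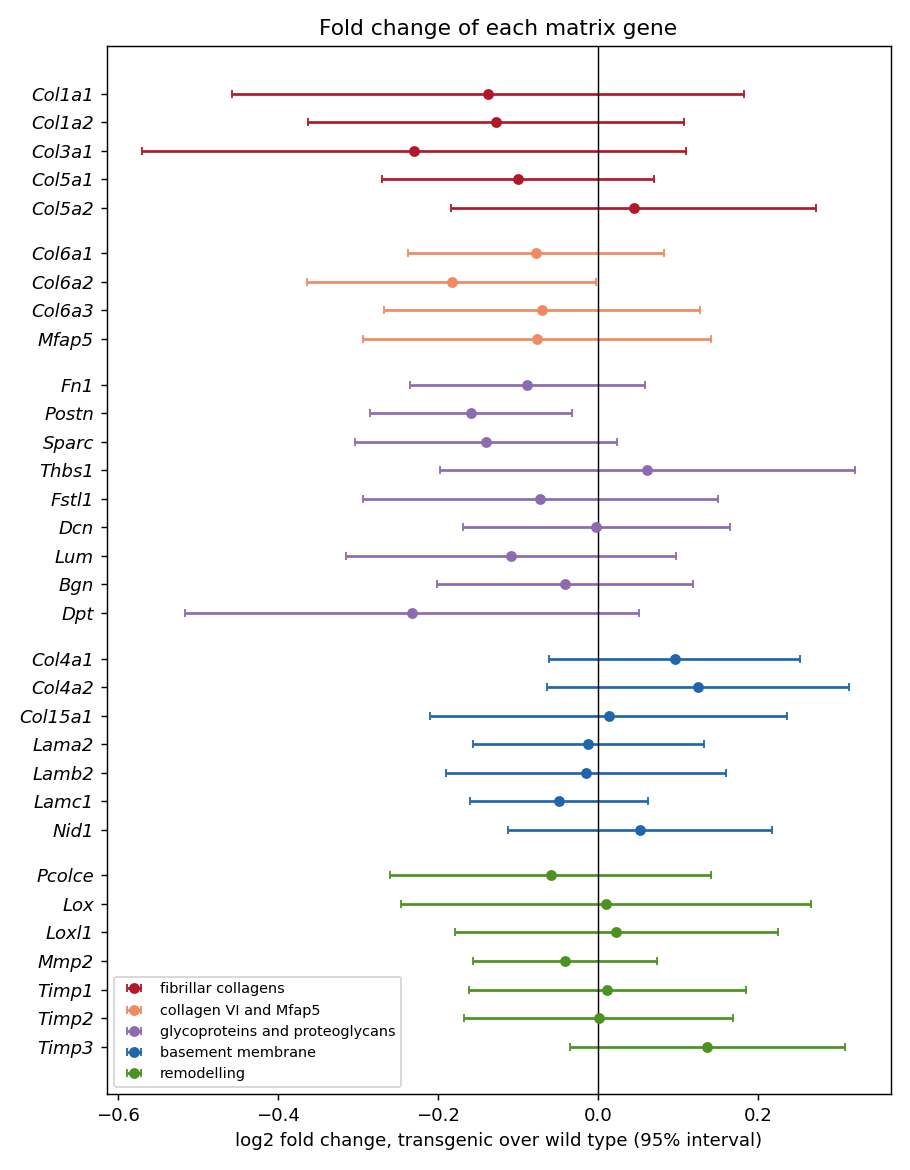
Log2 fold change of each of the 32 matrix genes, transgenic over wild type, with limma's 95% interval (6 arrays per genotype), coloured by gene group. The values run from -0.23 to 0.14, and 30 of the 32 intervals hold 0, the exceptions being Col6a2 and Postn.

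Fibrillar collagens, which assemble into the banded fibres of connective tissue, had a median log2 fold change of -0.13, with 4 of 5 genes negative. Their mean level was 8.94 ± 0.22 log2 units over transgenic arrays and 9.05 ± 0.19 over wild-type arrays (SD, n = 6 each), and the arrays of the genotypes overlapped throughout. Without the smaller chip lot the median was -0.21. It was -0.083 on day 1 and -0.154 on day 2.

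Col1a1 and Col1a2 encode the chains of type I collagen, the main fibril-forming collagen of tendon and muscle sheaths. Col1a1 had a lowest, median and highest level of 8.19, 8.37 and 8.80 log2 units in transgenic muscle, against 8.04, 8.61 and 8.97 in wild-type muscle. Transgenic arrays 1 and 2 and wild-type arrays 8, 9 and 12 were the high ones, and wild-type array 11 was the lowest of all 12. The log2 fold change of Col1a1 was -0.14 ± 0.15 (SE; limma adjusted p = 0.999, 95% interval -0.46 to 0.18). Col1a2 was lowest in transgenic array 3 and highest in wild-type array 9, with 9.93, 10.21 and 10.56 log2 units in transgenic muscle against 10.03, 10.36 and 10.61 in wild-type muscle, a log2 fold change of -0.13 ± 0.11. The second probe sets of Col1a1 and Col1a2 were at -0.16 and -0.20.

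Col3a1, the chain of type III collagen that accompanies type I in elastic tissues, had 9.48, 10.01 and 10.46 log2 units as lowest, median and highest level in transgenic muscle and 9.69, 10.42 and 10.50 in wild-type muscle. In wild-type muscle 4 arrays lay together at the top and arrays 7 and 11 well below them, whereas transgenic array 2 alone reached that height. The log2 fold change was -0.23 ± 0.16 (SE; limma adjusted p = 0.999), with 5 of 6 transgenic arrays below the wild-type mean, and it was 0.04 on day 1 and -0.50 on day 2. Col5a1, a chain of the type V collagen that sets fibril diameter, was at -0.10 ± 0.08, and its partner chain Col5a2 was at 0.04 ± 0.11 (-0.03 without the smaller chip lot), with its second probe set at -0.03.

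Upstream sequences are shown for the fibrillar collagen genes whose windows hold a searched motif, Col1a2 and Col3a1, and for Postn because it had the smallest p. They are from RefSeq on GRCm38.p6, lie on the plus strand and end just before the annotated start. Capitals mark a match to CCAAT in Col1a2 (chr6:4505468-4505617) and to TATAAA in Col3a1 (chr1:45311388-45311537) and Postn (chr3:54361007-54361106, the downstream of its 2 annotated starts).
Col1a2: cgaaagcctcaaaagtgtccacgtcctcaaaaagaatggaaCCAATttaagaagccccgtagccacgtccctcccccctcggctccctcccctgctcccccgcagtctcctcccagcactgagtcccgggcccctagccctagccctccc
Col3a1: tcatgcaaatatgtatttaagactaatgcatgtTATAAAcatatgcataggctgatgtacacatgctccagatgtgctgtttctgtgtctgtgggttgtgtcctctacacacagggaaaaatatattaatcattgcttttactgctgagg
Postn: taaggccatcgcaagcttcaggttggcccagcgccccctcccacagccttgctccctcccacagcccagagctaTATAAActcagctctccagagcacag

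The first capital lies 109 bases before the annotated start in Col1a2, 117 in Col3a1 and 26 in Postn. RefSeq promoter windows were matched for 21 of the 32 genes. On either strand of the 250 bases before the start, TATAAA was found in 2 of the 21, Col3a1 and Postn, and in 14.3% of 27025 genes with a window. CCAAT was found in 6 of the 21 (Col1a2, Col4a1, Col4a2, Nid1, Timp1 and Timp2) and in 37.5% of all genes with a window. The windows rest on the annotated starts, and a match is a string of letters, not a shown site.

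Collagen VI and its neighbours in the microfibrillar network were negative in 4 of 4 genes, with a median log2 fold change of -0.076. Col6a2, the α2 chain of collagen VI, whose mutation causes muscular dystrophy in humans, had a lowest, median and highest level of 9.46, 9.73 and 10.09 log2 units in transgenic muscle. In wild-type muscle they were 9.82, 9.91 and 10.02. The wild-type arrays lay in a narrow band, 5 of 6 transgenic arrays lay below the wild-type mean, and transgenic array 2 was the highest of all 12. The log2 fold change of Col6a2 was -0.18 ± 0.09 (SE; limma adjusted p = 0.999), and its second probe set was at -0.10 ± 0.10. Col6a1 was at -0.08 ± 0.08 and Col6a3 at -0.07 ± 0.09. The products of these genes combine in a single protein, and for each of them array 2 was the highest and array 5 the lowest of the transgenic arrays. Mfap5, a glycoprotein of elastic microfibrils, was at -0.08 ± 0.10. The group median was 0.080 on day 1 and -0.238 on day 2.

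Glycoproteins and proteoglycans of the interstitial matrix were negative in 8 of 9 genes, with a median of -0.088. Postn, which encodes periostin, a collagen-binding protein made in tissues under load or repair, had a lowest, median and highest level of 5.96, 6.06 and 6.19 log2 units in transgenic muscle. In wild-type muscle they were 6.02, 6.25 and 6.30. Its mean level is below that of the median probe set. All 6 transgenic arrays lay below the wild-type mean and the overlap came from wild-type array 7, at 6.02, in the smaller chip lot. The log2 fold change of Postn was -0.16 ± 0.06 (SE; limma unadjusted p = 0.0173, adjusted p = 0.798), -0.06 on day 1 and -0.25 on day 2. It was -0.20 without the smaller lot.

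Sparc, a collagen-binding protein that helps fibrils assemble, had 10.61, 10.76 and 10.88 log2 units as lowest, median and highest level in transgenic muscle and 10.65, 10.88 and 11.13 in wild-type muscle. Again 6 of 6 transgenic arrays lay below the wild-type mean, and wild-type array 7 was at the low end of its genotype. Its log2 fold change was -0.14 ± 0.08 (SE; limma adjusted p = 0.999), and its second probe set was at -0.07. Dpt, which encodes dermatopontin, a small protein that binds decorin and collagen, had 8.78, 9.02 and 9.42 log2 units in transgenic muscle and 8.85, 9.26 and 9.66 in wild-type muscle. Both arrays of the smaller lot were the lowest of their genotype. Dpt had the most negative log2 fold change on the list, -0.23 ± 0.13 (SE; limma adjusted p = 0.999), with 0.03 on day 1 and -0.50 on day 2.

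Among the remaining genes of this group are the small leucine-rich proteoglycans, which coat collagen fibrils. Dcn, decorin, was at -0.002 ± 0.079 (0.001 with each array centred on its median), Bgn, biglycan, at -0.04 ± 0.08 and Lum, lumican, at -0.11 ± 0.10. Fn1, fibronectin, was at -0.09 ± 0.07, but its other probe set was at 0.17, and the mean over both was 0.04. Fstl1, a secreted follistatin-like protein, was at -0.07 ± 0.10. Thbs1, thrombospondin 1, which can activate latent TGF-β, was at 0.06 ± 0.12, with levels between 6.57 and 6.72 log2 units in transgenic muscle and between 6.28 and 7.20 in wild-type muscle. Wild-type array 12 alone supplied the high end, and without it the log2 fold change of Thbs1 was 0.19, while without the smaller lot it was -0.0014.

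**Figure D2:**
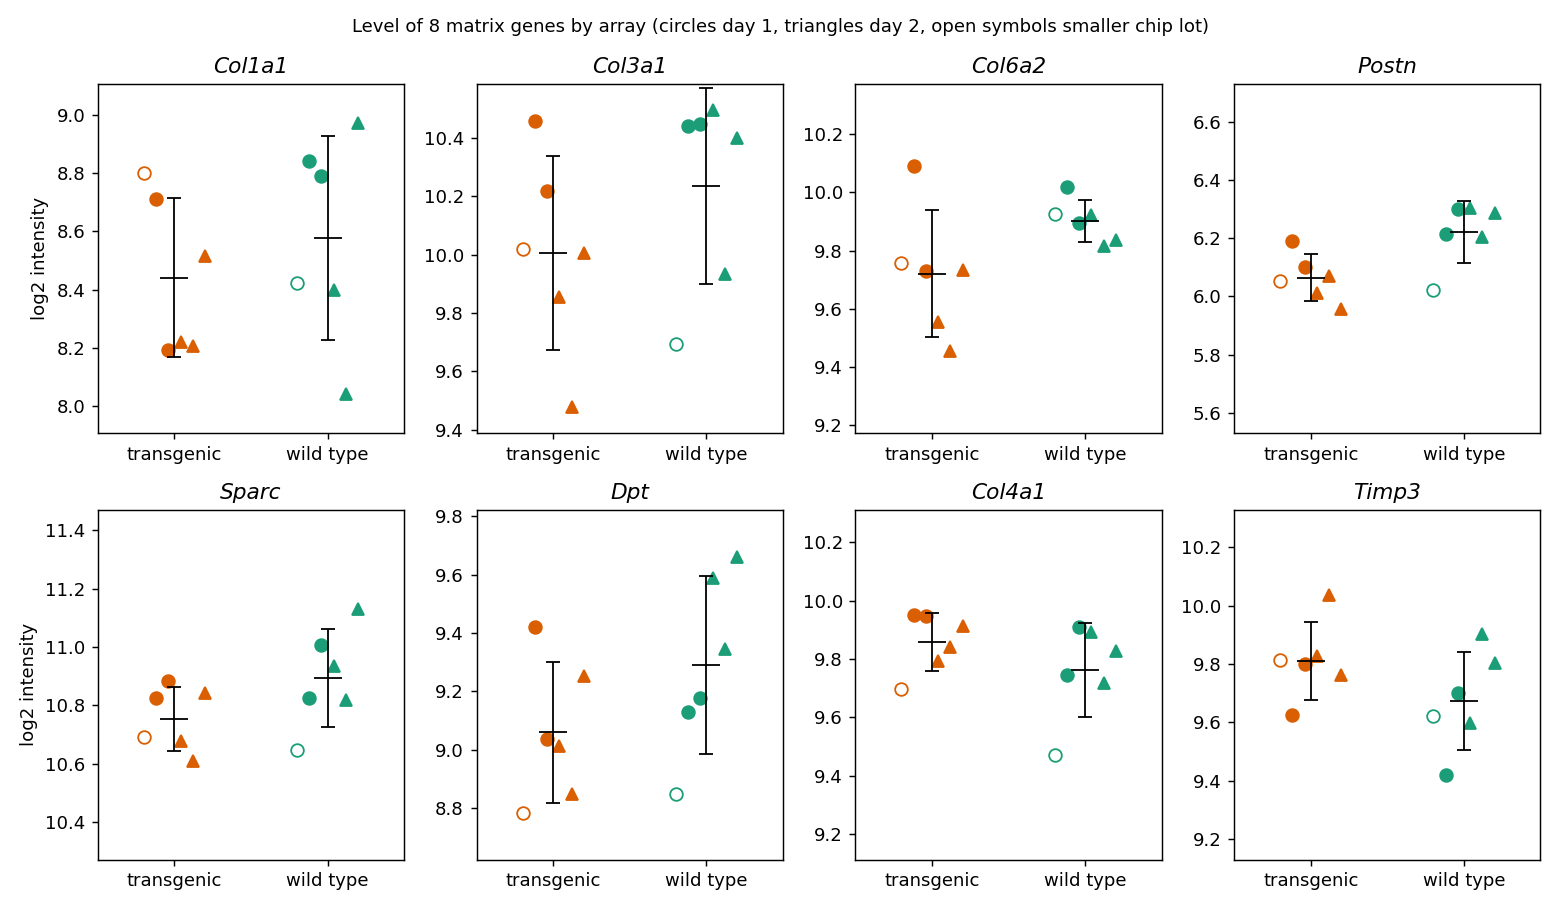
Log2 intensity of 8 matrix genes in each array, transgenic left and wild type right, with the mean and SD (n = 6 each) as bars; circles are day 1, triangles day 2 and open symbols the smaller chip lot. All panels span the same range of log2 units. Postn and Sparc have all 6 transgenic arrays below the wild-type mean, and in every panel the genotypes overlap.

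Basement membrane genes lay on both sides of 0, 4 of 7 being positive, around a median of 0.014. Col4a1 and Col4a2 encode the chains of the common type IV collagen network, and lie head to head on mouse chromosome 8. In the RefSeq promoter table on GRCm38.p6 their starts are at 11312826 on the minus strand for Col4a1 and at 11312805 on the plus strand for Col4a2, which leaves 22 bases downstream of both (chr8:11312805-11312826). The RefSeq gene record of Col4a1 reaches further, to 11312889, so the shared stretch depends on the start used. This stretch is shown, on the plus strand, because the pair lay on the same side of 0:
Col4a1 and Col4a2: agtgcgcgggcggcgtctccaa

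Col4a1 had a lowest, median and highest level of 9.70, 9.88 and 9.95 log2 units in transgenic muscle and 9.47, 9.79 and 9.91 in wild-type muscle. Col4a2 had 8.64, 8.79 and 8.91 log2 units in transgenic muscle, against 8.32, 8.67 and 8.90 in wild-type muscle. In each of the pair, 5 of 6 transgenic arrays were higher than the mean of wild type, and wild-type array 7 was the lowest of all 12. The log2 fold change was 0.10 ± 0.07 for Col4a1 and 0.13 ± 0.09 for Col4a2 (SE; limma adjusted p = 0.999 each). Without the smaller chip lot they were 0.07 and 0.05. Col4a2 was at 0.32 on day 1 and -0.07 on day 2.

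The other basement membrane genes lay close to 0. Lama2, the laminin α2 chain whose loss causes congenital muscular dystrophy, was at -0.01 ± 0.07, Lamb2 at -0.01 ± 0.08 and Lamc1 at -0.05 ± 0.05. Nid1, nidogen, the linker between laminin and collagen IV, was at 0.05 ± 0.08, with an SD of 0.045 in transgenic and 0.20 in wild-type muscle (n = 6 each). Col15a1, which joins the basement membrane to fibrils, was at 0.01 ± 0.11, and transgenic array 1, of the smaller lot, was the highest of all 12 at 8.15 log2 units.

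Remodelling genes, of which 5 of 7 were positive, had a median of 0.010. Timp3, an inhibitor of metalloproteinases that binds to the matrix, had a lowest, median and highest level of 9.62, 9.81 and 10.04 log2 units in transgenic muscle and 9.42, 9.66 and 9.90 in wild-type muscle. In 5 of 6 transgenic arrays it was above the wild-type mean, and the genotypes overlapped. Its log2 fold change was 0.14 ± 0.08 (SE; limma adjusted p = 0.999), 0.17 on day 1 and 0.11 on day 2, and its other 3 probe sets were at 0.05 to 0.16.

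The inhibitors Timp1 and Timp2 were at 0.01 ± 0.08 and 0.001 ± 0.079, and the other 5 probe sets of Timp2 were at -0.12 to -0.02. Mmp2, the gelatinase that cleaves denatured and type IV collagen, was at -0.04 ± 0.05. Pcolce, the enhancer of procollagen C-proteinase, was at -0.06 ± 0.09. Lox and Loxl1, the oxidases that cross-link collagen and elastin, were at 0.01 ± 0.12 and 0.02 ± 0.10. Of the 20 genes with more than 1 probe set, 14 had all their probe sets on 1 side of 0. The exceptions were Col5a2, Fn1, Lamc1, Lox, Mfap5 and Timp2.

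Side by side, the medians were -0.13 for fibrillar collagens, -0.076 for collagen VI and Mfap5, -0.088 for interstitial glycoproteins and proteoglycans, 0.014 for basement membrane and 0.010 for remodelling genes. The differences between these groups were not tested. With 1 array left out the medians ranged from -0.196 to -0.075 for fibrillar collagens, from -0.121 to -0.031 for collagen VI and Mfap5 and from -0.145 to -0.040 for glycoproteins and proteoglycans. Those of the basement membrane group, from -0.0059 to 0.049, and of the remodelling group, from -0.021 to 0.051, took both signs. They were negative without transgenic array 3 (basement membrane) or 6 (remodelling) and, for both groups, without wild-type array 7, 8 or 11. Without the smaller lot the median was -0.131 for collagen VI and Mfap5 and -0.016 for remodelling genes, and averaging all probe sets of a gene it was -0.024 for remodelling genes. The basement membrane group had a mean level of 8.30 ± 0.05 log2 units over transgenic arrays and 8.27 ± 0.11 over wild-type arrays. The remodelling group had 8.47 ± 0.05 over transgenic arrays and 8.46 ± 0.11 over wild-type arrays (SD, n = 6 each). In 10 of the 32 genes the SD was larger in transgenic than in wild-type muscle, beside 53.3% of all genes.

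**Figure D3:**
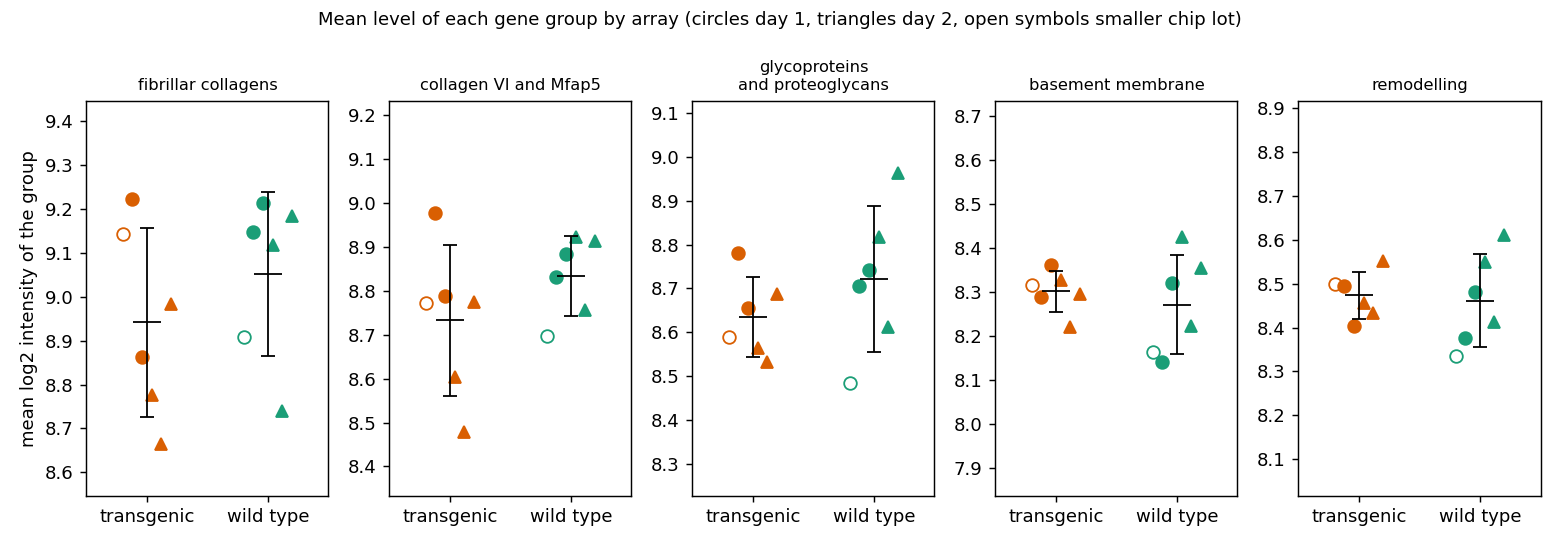
Mean log2 intensity of each gene group in each array, transgenic left and wild type right, with the mean and SD over 6 arrays as bars; circles are day 1, triangles day 2 and open symbols the smaller chip lot. Each panel spans the same range of log2 units. Fibrillar collagens run from 8.66 to 9.22 in transgenic and from 8.74 to 9.21 in wild-type arrays, a wider spread than that of the basement membrane group, from 8.22 to 8.36 in transgenic and from 8.14 to 8.42 in wild-type arrays.

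Many of the matrix genes were high, or low, in the same arrays of a genotype. The fibrillar collagen mean differed 1.47-fold between transgenic arrays 2 and 5, its highest and lowest, and 1.39-fold between wild-type arrays 9 and 11. For the basement membrane group the corresponding ranges were 1.10-fold in transgenic and 1.22-fold in wild-type muscle. In transgenic array 2, 24 of the 32 genes lay above the transgenic mean, and in array 5 only 7 did. In wild-type arrays 12 and 10 the genes above the wild-type mean numbered 27 and 26, and in arrays 11 and 7 they numbered 4 and 6. Over all genes the share above the mean of their own genotype was 49.2% and 57.7% in transgenic arrays 2 and 5, and 43.6%, 55.3%, 49.0% and 56.7% in wild-type arrays 12, 10, 11 and 7. The genes share arrays and cells of origin, so these counts are not independent observations.

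Fold changes were also taken within each hybridization day. On day 1 the log2 fold change was positive in 21 of 32 genes, with a median of 0.054, and on day 2 negative in 28 of 32, with a median of -0.126. Over all genes 47.5% were positive on day 1 and 46.8% negative on day 2. The value of day 2 lay below that of day 1 in 28 of the 32 genes and in 48.7% of all genes. A genotype-by-day interaction, fitted in limma over all probe sets after these values had been seen, passed for 0% of probe sets and none of the 32 genes, with a smallest adjusted p of 0.999. At an unadjusted p under 0.05 it marked 4 of the 32, Loxl1, Col6a1, Col4a2 and Dpt, and 3.04% of all probe sets.

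Loxl1 averaged 7.52 log2 units over transgenic arrays and 7.26 over wild-type arrays on day 1, and 7.32 in transgenic and 7.54 in wild-type muscle on day 2 (3 arrays each). Col6a1 averaged 8.98 in transgenic and 8.89 in wild-type muscle on day 1, against 8.74 in transgenic and 8.99 in wild-type muscle on day 2. Both arrays of the smaller lot belong to day 1. Timp3, Col4a1, Col1a1, Col1a2, Col5a1, Col6a2, Postn, Sparc, Lamc1 and Mmp2 kept the sign of their fold change on both days and in every other alternative that gave a value for them.

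**Figure D4:**
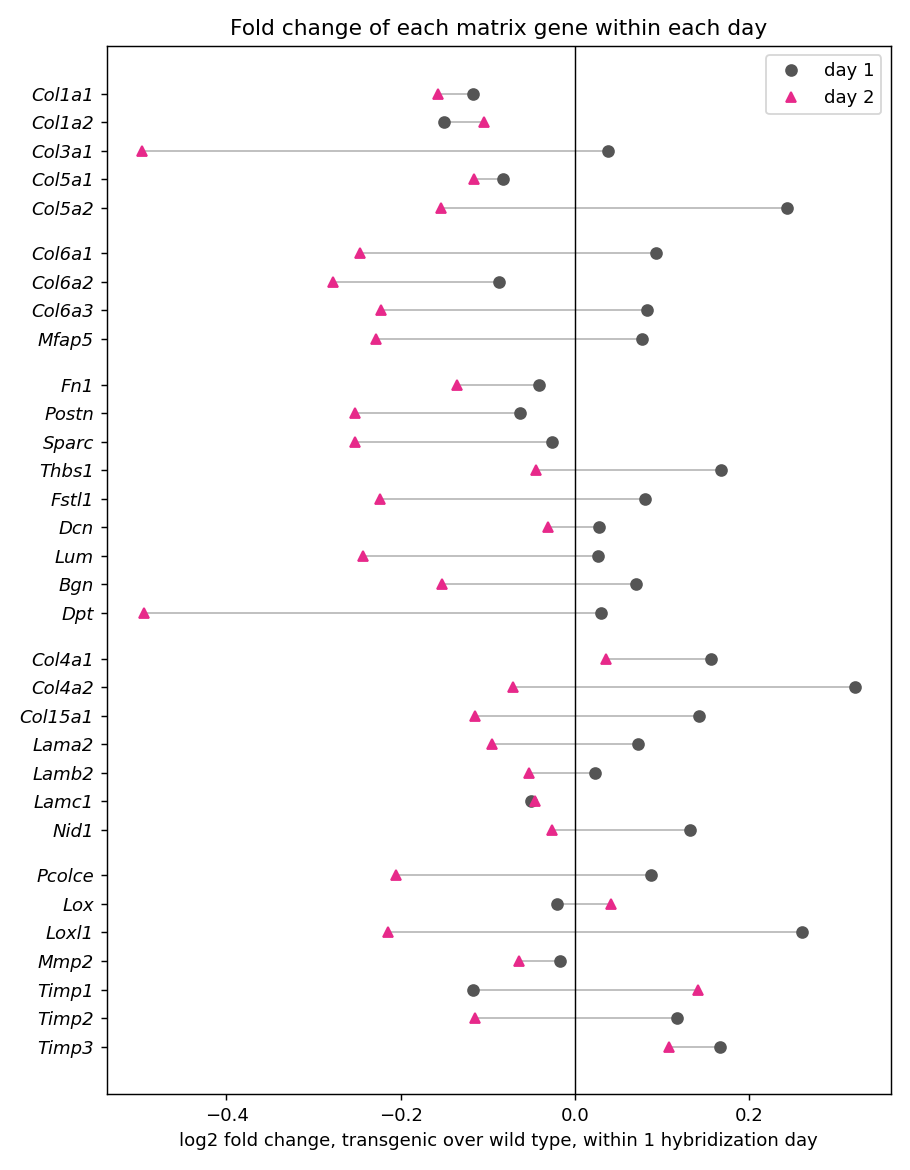
Log2 fold change of each matrix gene, transgenic over wild type, within day 1 (circles) and within day 2 (triangles), with 3 arrays per genotype on each day and no error shown. The values on day 2 lie left of those on day 1 in 28 of 32 genes, with the widest gaps in Col3a1 and Dpt.

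Other matrix genes, from lists of structural proteins, processing enzymes, receptors and TGF-β signalling, gave 0 calls among 96 measured genes in either direction in limma. At an unadjusted p under 0.05 there were 5 (P4hb, Timp4, Itga6, Smad4 and Ltbp3), a share near the 4.63% of all probe sets. Of 40 other structural genes 14 were positive and 26 negative, with a median of -0.008. Thbs2, thrombospondin 2, was at -0.20 ± 0.11 (-0.08 as the mean over its 2 probe sets), Col16a1 at -0.15 ± 0.09 and Col18a1, the source of endostatin, at -0.08 ± 0.06. Of 21 processing and turnover genes 14 were positive and 7 negative, with a median of 0.025: P4hb, a subunit of the prolyl hydroxylase that stabilises the collagen helix, was at -0.13 ± 0.06, the inhibitor Timp4 at 0.26 ± 0.12 and Sparcl1, a relative of Sparc, at 0.19 ± 0.09. The 18 matrix receptors had a median of -0.006, with 8 positive. Itga6, a laminin-binding integrin that endothelial cells also carry, was at 0.30 ± 0.09 (SE; limma adjusted p = 0.592), Sdc4 at 0.08 ± 0.05 and Itga3 at -0.10 ± 0.08. As means over their probe sets, Sdc4 was at 0.13 and Itga3 at -0.04.

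The list of TGF-β signalling genes, a pathway that drives matrix synthesis in fibroblasts, also holds its inhibitors Smad7 and Skil. Its genes were negative in 14 of 17, with a median of -0.11, and medians of -0.072 within day 1 and -0.087 within day 2. The list mean lay between 7.61 and 7.71 log2 units over transgenic arrays and between 7.70 and 7.81 over wild-type arrays. Smad4, the partner of receptor-activated SMAD proteins, was at 9.60 ± 0.14 log2 units over transgenic arrays and 9.80 ± 0.08 over wild-type arrays (SD, n = 6 each). Its fold change on the log2 scale was -0.21 ± 0.07 (SE; adjusted p = 0.653 in limma), and -0.10 as the mean over its 3 probe sets. Ltbp3, which holds latent TGF-β in the matrix, was at -0.17 ± 0.07 and Tgfb3, a ligand, at -0.13 ± 0.06. None of the 17 passed.

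Markers of the cells that make matrix were given beside these values, and their part in them was not tested. The 9 fibroblast markers had a median log2 fold change of 0.004, with 5 positive. Within day 1 it was 0.065, with 8 of 9 positive, and within day 2 -0.055, with 6 of 9 negative. The fibroblast list mean lay between 6.79 and 6.97 log2 units over transgenic arrays and between 6.82 and 6.97 over wild-type arrays. Transgenic arrays 2 and 5 held the highest and the lowest mean of their genotype, as they did for fibrillar collagens. In wild-type muscle the arrays differed: 10 and 7 for fibroblast markers, 9 and 11 for fibrillar collagens. Collagen VI and Mfap5 had the same highest and lowest arrays as fibroblast markers in both genotypes. For glycoproteins and proteoglycans these were 2 and 5 in transgenic and 12 and 7 in wild-type muscle. For basement membrane genes they were 3 and 5 in transgenic and 10 and 8 in wild-type muscle. For remodelling genes they were 6 and 3 in transgenic and 12 and 7 in wild-type muscle. The brightest fibroblast markers were Scara5, at 0.01 ± 0.11, and Pi16, at -0.10 ± 0.09. Tendon markers were negative in 7 of 8, with a median of -0.14 and a list mean between 7.31 and 7.89 log2 units over transgenic arrays and between 7.46 and 7.88 over wild-type arrays. Fmod, fibromodulin, was at -0.13 ± 0.11 and Thbs4 at -0.06 ± 0.12. Tppp3, named after its values were seen, was the only called gene on the marker lists, at -0.35 ± 0.05 (SE; limma adjusted p = 0.0257). Fmod and Thbs4 are matrix genes themselves and are also on the list of other structural genes.

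Adipocyte markers were negative in 4 of 5, 3 of them at an unadjusted p under 0.05 in limma (4.63% of all probe sets) and none past the threshold, with a median of -0.52. Within day 1 it was -0.094, with 4 of 5 negative, and within day 2 -0.734, with 5 of 5 negative. The adipocyte list mean lay between 7.90 and 8.59 log2 units over transgenic arrays and between 8.39 and 9.10 over wild-type arrays. Adipoq, adiponectin, was at -1.01 ± 0.37, and Car3, which muscle also expresses, at 0.01 ± 0.06. Endothelial markers were positive in 11 of 12, 6 of them at an unadjusted p under 0.05 in limma (4.63% of all probe sets) and none past the threshold. The median of the endothelial markers was 0.14, with 0.217 within day 1 and 0.115 within day 2. Their list mean lay between 7.83 and 7.99 log2 units over transgenic arrays and between 7.69 and 7.85 over wild-type arrays, with Flt1 at 0.13 ± 0.07 and Egfl7, the brightest and the only negative one, at -0.01 ± 0.15. As the mean over its 4 probe sets Egfl7 was at 0.014.

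For smooth muscle and pericyte markers the median was 0.023, with 5 of 8 positive, and Rgs5 was at 0.21 ± 0.08 and Acta2 at -0.22 ± 0.12. Their list mean lay between 8.16 and 8.25 log2 units over transgenic arrays and between 7.94 and 8.32 over wild-type arrays. Macrophage markers had a median of 0.025, with 5 of 8 positive, a list mean of 7.11 to 7.39 log2 units over transgenic arrays and 7.07 to 7.39 over wild-type arrays, and with Csf1r at 0.06 ± 0.05 and Lyz2 at 0.17 ± 0.14. Schwann cell markers had a median of 0.049, with 3 of 5 positive, a list mean of 7.84 ± 0.15 log2 units over transgenic arrays and 7.78 ± 0.10 over wild-type arrays (SD, n = 6 each), and with Pmp22 at 0.05 ± 0.09 and Mbp at 0.27 ± 0.15. Slow fibre genes were negative in 7 of 8, with a median of -0.51. Their list mean lay between 7.57 and 8.51 log2 units over transgenic arrays and between 7.53 and 9.21 over wild-type arrays. Atp2a2 was at -0.52 ± 0.23 and Myl2 at -0.54 ± 0.32. As means over their probe sets, Rgs5 was at 0.11, Acta2 at -0.14, Mbp at 0.11 and Atp2a2 at -0.24. On these lists of smooth muscle, macrophage, Schwann cell and slow fibre genes none passed the test. An unadjusted p under 0.05 in limma was reached by 4.63% of all probe sets. At that level there were 2 of 8 smooth muscle and pericyte markers and 1 of 8 slow fibre genes. Among tendon markers there was 1 of 8, and among fibroblast, macrophage and Schwann cell markers none.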

How the data were processed

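Total RNA, labelled with biotin, was measured on Affymetrix MOE430A arrays, 1 per mouse. The authors deposited probe set intensities, and per the submitters' processing notes they used RMA. That the scale is linear follows from the values. Version, probe definition file and filters are not given in the sources used here. The settings text deposited with each array, of a unit classed as other, gave hybridization day, run (times under 30 minutes apart) and chip lot.

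Intensities were converted to log2 with no pseudocount. Of 22690 probe sets, 64 controls were left out. Of the 22626 tested, 20380 carried 1 gene symbol in the platform annotation, 691 several and 1555 were unlisted. limma 3.58.1 in R 4.3.3 (lmFit, eBayes, no covariate, two-sided) was fitted to all of them, with Benjamini-Hochberg adjustment. The test was run on simulated arrays with independent noise, no day, run or lot effect, and added changes larger than any fold change on the list. That run does not cover changes of the size seen here. Alternatives were centring on array medians, a trended prior, a filter on dim probe sets, day or run as a block, each day alone, no smaller lot, the mean over a gene's probe sets and leaving out each array, with a genotype-by-day interaction added after the within-day values were seen.

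Genes and lists were chosen with earlier results of these data known. All members were named, with, by p, 3 genes above the median level from each other matrix list and the 2 brightest of each marker list. Precision is limited by how many arrays there are, with a median SE of 0.0689 for a log2 fold change. Probe-level background was not analysed here, and the titles give no pairing of the genotypes.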

Additional observations from a re-analysis of the deposited data

Results flagged for a closer look

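In 3 of 74 checks of 6 arrays of 1 genotype, 1 array lay apart from the others by Dixon's criterion, a rate near the 1 in 20 that chance gives. All 3 were wild-type arrays. Postn was 6.02 log2 units in wild-type array 7, of the smaller chip lot, with the next at 6.21. Lamc1 was 8.41 in wild-type array 8, with the next at 8.54. Mmp2 was 9.31 in wild-type array 12, with the next at 9.10. No transgenic array was set apart for any of the 32 genes.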

How the results depend on the processing

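None of the 32 matrix genes passed the threshold under any of the 21 alternatives that gave a value for it (the filter on dim probe sets left out Postn and Thbs1), with a smallest adjusted p of 0.346 in limma (Postn, leaving out 1 array), and no other matrix gene passed either. Counts of called probe sets did move. With day as a block 11 were lower, and with run as a block 4 were higher and 2 lower. There was 1 higher and 0 lower on day 1, and 1 higher and 1 lower on day 2. Leaving out 1 array gave 4 to 12 higher and 1 to 6 lower. Of the 32 genes, 21 kept 1 sign whichever array was left out, but only 10 kept it throughout, so most directions are not settled. The sign turned for 14 genes within day 1, 7 within day 2 and 7 without the smaller lot. Each day alone holds 3 arrays per genotype, and the cause was not tested. The median was 0.132 on day 1 and -0.052 on day 2 for basement membrane, 0.080 and -0.238 for collagen VI and Mfap5, 0.028 and -0.223 for glycoproteins and proteoglycans, and 0.088 and -0.065 for remodelling genes, so that all of these took both signs. The fibrillar collagen median was negative on both days, though 2 of the 5 genes, Col3a1 and Col5a2, were positive on day 1.

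The sign turned on day 1 for Col3a1 (0.038), Lama2 (0.072), Lamb2 (0.023), Col6a1 (0.093), Col6a3 (0.083), Mfap5 (0.077), Fstl1 (0.080), Dcn (0.028), Lum (0.027), Bgn (0.071), Dpt (0.030), Pcolce (0.088), Lox (-0.021) and Timp1 (-0.117). On day 2 it turned for Col5a2 (-0.154), Col4a2 (-0.071), Col15a1 (-0.115), Nid1 (-0.026), Thbs1 (-0.044), Loxl1 (-0.215) and Timp2 (-0.115). Without the smaller lot it turned for Col5a2 (-0.033), Col15a1 (-0.042), Lama2 (0.0063), Thbs1 (-0.0014), Dcn (0.011), Loxl1 (-0.016) and Timp2 (-0.088). The mean over probe sets turned Fn1 (0.039), Lox (-0.032) and Timp2 (-0.044). Dcn was at 0.046 with run as a block and 0.0011 with centred arrays. Leaving out 1 array gave both signs for Bgn (-0.096 to 0.0049), Col15a1 (-0.067 to 0.090), Col5a2 (-0.012 to 0.115), Dcn (-0.033 to 0.049), Lama2 (-0.050 to 0.021), Lamb2 (-0.055 to 0.032), Lox (-0.066 to 0.105), Loxl1 (-0.021 to 0.086), Nid1 (-0.0040 to 0.101), Timp1 (-0.049 to 0.050) and Timp2 (-0.049 to 0.051). No paired analysis was run, because the titles do not say which transgenic and wild-type mice belong together.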
